A study of Mus musculus with 6 samples.

Results

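The measurements concern 10 mouse genes of iron storage, heme breakdown and iron transport (Fth1, Ftl1, Ncoa4, Hmox1, Blvrb, Tfrc, Slc11a2, Slc11a1, Slc40a1 and Ireb2), which are 10 of the 54532 genes with a deposited value. They were chosen from measured values of the same contrast that is described here, so their differences between genotypes are given as a description, without a test. Neutrophils from the bone marrow of C57BL/6J mice were either wild type (WT, libraries 1 to 3) or lacked progranulin (PGRN KO, libraries 4 to 6). Progranulin is a secreted and lysosomal glycoprotein encoded by Grn. All 6 cultures were exposed to live Candida albicans, a fungus, for 6 h before RNA was sequenced, and no culture without the fungus is analysed here. Every difference is therefore one between genotypes in the presence of the fungus, and a response to the fungus cannot be separated from a difference that was there before it. The neutrophils were taken with magnetic beads against Ly-6G. The PGRN KO and WT mice were obtained from different suppliers, so source and genotype cannot be told apart. Neither the age of the mice nor the number behind each culture is stated in the sources used here.

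Cells keep free iron low because it catalyses the formation of reactive oxygen species. Iron enters from transferrin through the transferrin receptor and leaves the endosome through a divalent metal transporter, and what is not used is stored inside ferritin, a hollow shell of heavy and light chains. Heme oxygenase opens the heme ring and releases its iron, and ferroportin is the exporter of iron from the cell. Iron regulatory proteins tie these steps together by binding stem-loops, called iron-responsive elements, in the messenger RNAs of ferritin, ferroportin and the transferrin receptor. Phagocytes also withhold iron from the microbes they engulf, which need it to grow.

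Grn itself was at 168, 161 and 166 FPKM in WT and at 0.242, 0.206 and 0.747 FPKM in PGRN KO, so all libraries matched their labels. FPKM are fragments scaled to gene length and library size, which allows levels to be compared between genes. The libraries held 17087344 to 18821091 fragments on genes. Neutrophil markers were present throughout, with Ly6g between 37.9 and 52.8 FPKM and the 11 markers on the list summing to 66721 to 71298 FPKM in WT and 68602 to 78319 FPKM in PGRN KO. The spread between replicate libraries exceeded counting noise (chi-square per degree of freedom 2.83 to 11.7). Nothing in the labels says that the cultures came from separate animals, so p-values measure the spread between these samples, which may be technical. In these bulk samples fewer cells of a type and less RNA per cell cannot be told apart.

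All 10 genes had lower mean FPKM in PGRN KO than in WT, by between 1.17% for Ireb2 and 36.0% for Blvrb. For 8 of the 10, every PGRN KO library lay below every WT library, and the exceptions were Ncoa4 and Ireb2. Among all 14807 genes with a mean of at least 0.1 FPKM, 19.6% showed that complete separation. The same 8 genes were past the threshold of the fit over all genes (limma on log2(FPKM + 1), Benjamini-Hochberg adjusted p under 0.05), all of them lower, where 9.95% of all genes were called lower and 7.94% were called higher. The choice of the 10 genes used this contrast, so nothing is read from these counts. The median log2 fold change of the 10 was -0.43, beside a median of 0.00 over all genes tested. Among the 504 tested genes with a mean of at least 100 FPKM, a limit set after the values were seen, 35.3% were called lower, with a median log2 fold change of -0.10. With 3 libraries against 3, an exact two-sided permutation test of a single gene cannot go below p = 0.10.

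The order of levels per gene length in WT was Fth1, Ftl1, Hmox1, Slc11a1, Tfrc, Slc40a1, Blvrb, Ncoa4, Slc11a2 and Ireb2. Neighbours in that order did not overlap in their library values. In PGRN KO the order was the same except that Ncoa4 stood above Blvrb and Ireb2 above Slc11a2, again with no overlap between neighbours. The means ran from 35798 FPKM for Fth1 down to 6.23 FPKM for Ireb2 in WT. Together the 10 genes took 5.06% ± 0.137 of all fragments in WT and 4.44% ± 0.0890 in PGRN KO (mean ± SD, n = 3 each). The genes lie on 8 chromosomes, and none is on chromosome 11, which carries Grn.

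**Figure D1:**
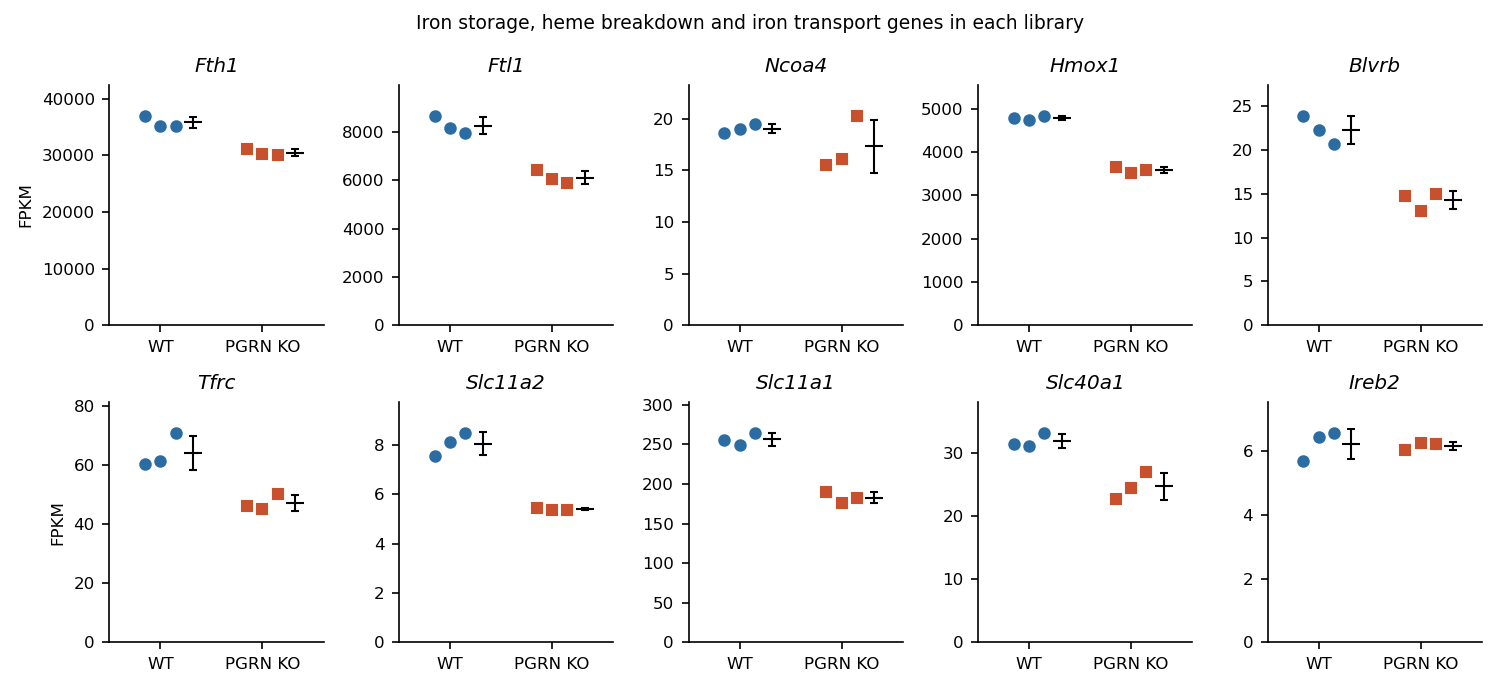
FPKM (vertical axis, linear, starting at 0) of each of the 10 genes in the 3 WT libraries (circles) and the 3 PGRN KO libraries (squares), with the mean and SD of each genotype as a bar to the right of its points. The genotypes separate completely in 8 panels and overlap for Ncoa4 and Ireb2.

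Ferritin is built from the heavy chain, encoded by Fth1, which oxidises ferrous iron, and the light chain, encoded by Ftl1, which helps the mineral core to form. Both transcripts carry an iron-responsive element in the 5′ untranslated region, the type at which binding of an iron regulatory protein blocks translation. The matched stretches are shown because they are the feature shared by the 2 most abundant of the 10 genes and also by Slc40a1. They are read from the mouse genome GRCm38 with GENCODE M21 transcripts, and the capitals mark the bulged C and the 6 loop bases.
Fth1 (chr19:9982732-9982760, plus strand): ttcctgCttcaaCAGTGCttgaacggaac
Ftl1 (chr7:45459779-45459807, minus strand): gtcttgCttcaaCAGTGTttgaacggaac
Slc40a1 (chr1:45925465-45925493, minus strand): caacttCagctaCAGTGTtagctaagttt

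Fth1 (ENSMUSG00000024661, chr19:9982703-9985092, plus strand) was the most abundant transcript by FPKM in every WT library. It was at 36952, 35244 and 35199.5 FPKM in WT and at 31084, 30288 and 29967 FPKM in PGRN KO. The lowest WT library was above the highest PGRN KO library. The means were 35798 ± 999 and 30446 ± 575 FPKM (mean ± SD, n = 3 each), which is 15.0% lower in PGRN KO, a log2 fold change of -0.23 (SE 0.055). In every PGRN KO library Fth1 ranked 2nd, below S100a9, a subunit of the neutrophil protein calprotectin. Between 476345 and 543531 fragments stood behind each value, so counting error is small beside the spread between libraries. Fth1 is the least settled of the 8 genes past the threshold. Its call was lost when WT library 1, 2 or 3 or PGRN KO library 5 or 6 was left out, and also without the filter on low values and with plain totals of fragments as library sizes.

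Ftl1 (ENSMUSG00000050708, chr7:45457944-45459884, minus strand) was at 8669, 8173 and 7967 FPKM in WT and at 6416, 6041 and 5888 FPKM in PGRN KO. No PGRN KO library reached the lowest WT library. The mean fell from 8269.6 ± 361 to 6115 ± 271 FPKM (mean ± SD, n = 3 each), 26.1% lower, with a log2 fold change of -0.44 (SE 0.058). Under quantile normalization, which forces all libraries to 1 distribution, the log2 fold change was -0.12 and the call was lost, as it also was without the filter on low values. On the deposited scale the light chain was lowered by a larger share than the heavy chain, and under quantile normalization this order turned, at -0.22 for Fth1 and -0.12 for Ftl1. Quantile values depend on rank alone. Fth1 ranked 1 by FPKM in every WT library and 2 in every PGRN KO library. Ftl1 ranked 5, 5 and 6 in WT and 6 in every PGRN KO library. The quantile values thus reflect gaps between neighbouring top ranks and do not measure the size of either change. The ratio of Fth1 to Ftl1 FPKM within a library was 4.26, 4.31 and 4.42 in WT and 4.84, 5.01 and 5.09 in PGRN KO. The ratio is the same for any library size but not under quantile normalization, and its values did not overlap between genotypes.

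Ferritin genes have many processed copies in the mouse genome, which can share reads with Fth1 and Ftl1, so how fragments were split among them is uncertain. All other rows whose symbol begins with Fth or Ftl together held 0.448% ± 0.0406 of the Fth1 and Ftl1 fragments in WT and 0.422% ± 0.0213 in PGRN KO (mean ± SD, n = 3 each). The largest was the pseudogene Ftl1-ps1, at 168, 151 and 133 FPKM in WT and 123, 120.1 and 105 FPKM in PGRN KO. Ftl2-ps followed at 3.65 to 10.4 FPKM, and the Fthl17 genes were at or near 0. Ftl1 also overlaps Gm10252 on the opposite strand, which averaged 2.91 FPKM in WT and 1.68 FPKM in PGRN KO, and reads of the 2 cannot be separated if the counting ignored strand.

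Ncoa4 (ENSMUSG00000056234, chr14:32159865-32179855, plus strand) encodes the receptor that carries ferritin to autophagosomes so that its iron can be recovered. It was at 18.6, 19.0 and 19.5 FPKM in WT and at 15.6, 16.1 and 20.3 FPKM in PGRN KO. Libraries 4 and 5 were below all WT libraries and library 6 was above them, so the genotypes overlapped. The means were 19.0 ± 0.460 and 17.3 ± 2.58 FPKM (mean ± SD, n = 3 each), with a log2 fold change of -0.14 (SE 0.097). Without PGRN KO library 6 the log2 fold change was -0.25 and it passed the threshold of the fit over all genes.

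Hmox1 (ENSMUSG00000005413, chr8:75093621-75100589, plus strand) encodes the inducible heme oxygenase, which turns heme into biliverdin, carbon monoxide and ferrous iron. It was at 4789, 4747 and 4837 FPKM in WT and at 3645, 3510.4 and 3586 FPKM in PGRN KO. The libraries of each genotype lay close together and far from those of the other. The means were 4791 ± 45.4 and 3580.4 ± 67.4 FPKM (mean ± SD, n = 3 each), 25.3% lower in PGRN KO, with a log2 fold change of -0.42 (SE 0.042), which quantile normalization brought to -0.20 without ending the call. Its rank by FPKM among all genes was 10 in every WT library and 11, 11 and 12 in PGRN KO, and its quantile value reflects these ranks alone. Its share of all fragments was 0.809% ± 0.00683 in WT and 0.657% ± 0.00851 in PGRN KO (mean ± SD, n = 3 each).

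Biliverdin reductases reduce biliverdin to bilirubin. The B form, also known as a flavin reductase, is encoded by Blvrb (ENSMUSG00000040466, chr7:27447978-27466144, plus strand). Blvrb was at 23.9, 22.3 and 20.7 FPKM in WT and at 14.8, 13.1 and 14.9 FPKM in PGRN KO. Every PGRN KO library was below every WT library. The mean fell from 22.3 ± 1.61 to 14.3 ± 1.02 FPKM (mean ± SD, n = 3 each), 36.0% lower, the largest proportional decrease of the 10 (log2 fold change -0.61, SE 0.074). It rests on 662 to 1130 fragments per library.

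The related genes Hmox2 and Blvra give a scale within each library. Hmox2, the constitutive heme oxygenase, was at 81.1 ± 2.73 FPKM in WT and 69.9 ± 4.55 FPKM in PGRN KO (mean ± SD, n = 3 each; log2 fold change -0.21, limma adjusted p = 0.0457). The ratio of Hmox1 to Hmox2 was 60.8, 59.0 and 57.5 in WT and 53.6, 52.7 and 47.7 in PGRN KO. Blvra, the A form of biliverdin reductase, did not pass the threshold (log2 fold change -0.09, limma adjusted p = 0.239), and the ratio of Blvra to Blvrb was 0.422, 0.470 and 0.481 in WT and 0.631, 0.746 and 0.622 in PGRN KO. Blvra itself was also lower in every PGRN KO library (9.30 to 9.77 FPKM) than in every WT library (9.95 to 10.5 FPKM). Both ratios were separate between genotypes. In PGRN KO, Hmox1 was lower relative to Hmox2, and Blvrb was lower relative to Blvra.

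**Figure D2:**
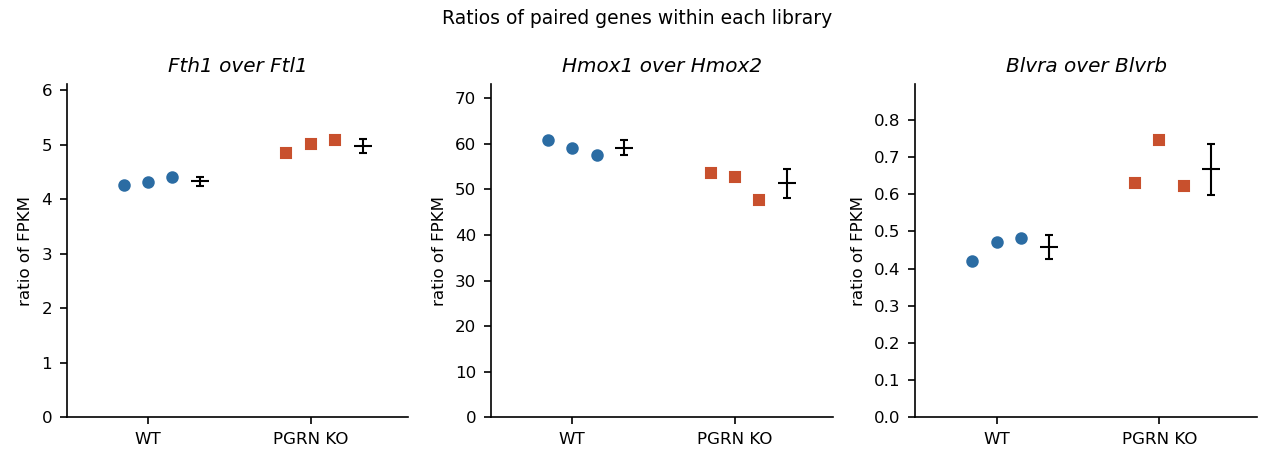
Ratios of FPKM (vertical axis, linear, starting at 0) of Fth1 to Ftl1, Hmox1 to Hmox2 and Blvra to Blvrb within each WT library (circles) and PGRN KO library (squares), with mean and SD. The mean ratio goes from 4.33 to 4.98 for Fth1 to Ftl1, from 59.1 to 51.3 for Hmox1 to Hmox2 and from 0.458 to 0.666 for Blvra to Blvrb, with no overlap in any panel.

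Tfrc (ENSMUSG00000022797, chr16:32608920-32632794, plus strand) encodes transferrin receptor 1, which takes up iron bound to transferrin. Its 3′ untranslated region holds 4 matches to the iron-responsive element, the position at which binding of an iron regulatory protein shields the messenger RNA from decay. They are printed to show how their stems differ, CAGTG in the loop being part of the search (GRCm38, plus strand, capitals as above).
Tfrc match 1 (chr16:32631219-32631247): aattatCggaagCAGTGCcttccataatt
Tfrc match 2 (chr16:32631598-32631626): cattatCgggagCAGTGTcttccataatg
Tfrc match 3 (chr16:32631663-32631691): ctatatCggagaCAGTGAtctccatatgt
Tfrc match 4 (chr16:32631710-32631738): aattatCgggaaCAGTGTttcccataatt

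Tfrc was at 60.4, 61.3 and 70.8 FPKM in WT and at 46.3, 45.1 and 50.1 FPKM in PGRN KO. WT library 3 was the highest, and the lowest WT library was still above every PGRN KO library. The means were 64.2 ± 5.75 and 47.2 ± 2.63 FPKM (mean ± SD, n = 3 each), 26.5% lower in PGRN KO, with a log2 fold change of -0.43 (SE 0.074). The ferritin transcripts, with the element at their 5′ end, and Tfrc, with it at the 3′ end, were thus lower together.

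Slc11a2 (ENSMUSG00000023030, chr15:100387898-100425072, minus strand) encodes DMT1, which moves ferrous iron out of the endosome into the cytosol. It was at 7.56, 8.11 and 8.47 FPKM in WT and at 5.44, 5.36 and 5.37 FPKM in PGRN KO, without overlap. The mean fell from 8.05 ± 0.459 to 5.39 ± 0.0418 FPKM (mean ± SD, n = 3 each), 33.0% lower, with a log2 fold change of -0.50 (SE 0.057), on 617 to 922 fragments. No match to the iron-responsive element used here was found in its annotated untranslated regions. The search asked for full pairing of the stem beside the loop, so an element with an imperfect stem would be missed.

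Slc11a1 (ENSMUSG00000026177, chr1:74375195-74386062, plus strand) encodes NRAMP1, a related transporter of the phagosome membrane. Where the protein is functional, it draws iron and manganese away from engulfed microbes. Whether it is functional in these mice was not measured, so the RNA level is no measure of that transport. It was at 256, 249 and 264 FPKM in WT and at 190.0, 176 and 183 FPKM in PGRN KO, again with all PGRN KO libraries below all WT libraries. The means were 256 ± 7.75 and 183 ± 7.08 FPKM (mean ± SD, n = 3 each), 28.6% lower, with a log2 fold change of -0.48 (SE 0.046). Slc11a1 was 31.9 ± 1.70 times as abundant per length as Slc11a2 in WT and 33.9 ± 1.08 times in PGRN KO (mean ± SD, n = 3 each), and the library values of this ratio overlapped.

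Slc40a1 (ENSMUSG00000025993, chr1:45908068-45926523, minus strand) encodes ferroportin. It was at 31.4, 31.2 and 33.1 FPKM in WT and at 22.7, 24.4 and 27.0 FPKM in PGRN KO. PGRN KO library 6 was the closest to WT but stayed below it. The mean fell from 31.9 ± 1.07 to 24.7 ± 2.20 FPKM (mean ± SD, n = 3 each), 22.6% lower, with a log2 fold change of -0.36 (SE 0.069). Its call was lost when WT library 1, 2 or 3 or PGRN KO library 5 was left out.

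Ireb2 (ENSMUSG00000032293, chr9:54863789-54912530, plus strand) encodes iron regulatory protein 2, which binds the elements shown above when iron is scarce and is degraded when it is plentiful. It was at 5.70, 6.45 and 6.56 FPKM in WT and at 6.02, 6.26 and 6.21 FPKM in PGRN KO. The PGRN KO values all lay inside the WT range. The means were 6.23 ± 0.470 and 6.16 ± 0.127 FPKM (mean ± SD, n = 3 each), with a log2 fold change of -0.01 (SE 0.064), and its sign turned positive under several alternatives, among them plain totals of fragments (0.09). Aco1, which encodes iron regulatory protein 1, had a log2 fold change of 0.01 (limma adjusted p = 0.940).

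The sizes of these differences depend on how the libraries are scaled. Against plain totals of fragments, the library sizes behind the deposited values shift PGRN KO against WT by -0.12 (log2). With plain totals the log2 fold change was -0.11 for Fth1, -0.32 for Ftl1, -0.30 for Hmox1, -0.50 for Blvrb, -0.32 for Tfrc, -0.40 for Slc11a2, -0.36 for Slc11a1 and -0.24 for Slc40a1. Ncoa4 came to -0.02. In limma voom on recovered fragments the median of all genes stood at 0.12, and relative to that median Fth1 was at -0.24, Ftl1 at -0.44 and Hmox1 at -0.42.

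**Figure D3:**
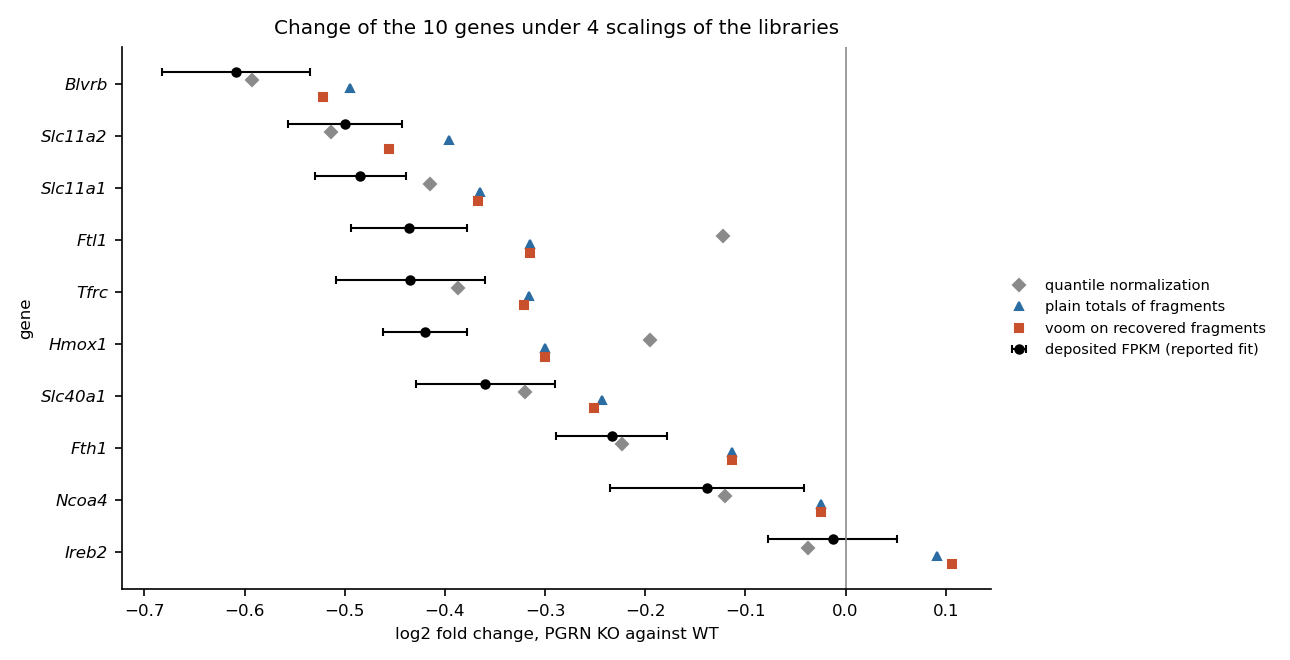
Log2 fold change of PGRN KO against WT (horizontal axis) of the 10 genes under the deposited scaling (black circles, bars are SE), quantile normalization (diamonds), plain totals of fragments (triangles) and voom on recovered fragments (squares). Ireb2 is the 1 gene with points on both sides of 0, and the change of Ftl1 ranges from -0.44 to -0.12. The latter is the quantile value, which depends on rank alone.

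The surrounding iron and heme network was described with 96 other genes in 9 lists written by function, of which 74 were tested. Of these, 24 were lower (32.4%), 6 were higher and 44 did not pass the threshold, with a median log2 fold change of -0.09. The shares over all genes are the 9.95% lower and 7.94% higher given above. The lists were chosen with earlier results of these data known, so nothing is read from these counts or from those by list below. Of the genes called lower, 9 were on the list of transcription factors and their regulator Keap1, and 6 were on the list of genes induced through NRF2 or BACH1. Without those lists, 9 of 54 (16.7%) were lower and 6 were higher, and the median was 0.02.

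On the list of transcription factors of the heme and iron response, which also holds Keap1, the adaptor that marks NRF2 for degradation, 9 of 11 fell, Keap1 among them (log2 fold change -0.29, limma adjusted p = 0.0367), none rose, and the median log2 fold change was -0.50. Spic, which drives the programme of iron-recycling macrophages, fell from 9.31 ± 0.769 to 3.71 ± 0.198 FPKM (mean ± SD, n = 3 each; log2 fold change -1.13, SE 0.073, limma adjusted p = 0.000353). Bach1, a repressor that heme inactivates and that silences Hmox1 and the ferritin genes, fell from 34.7 ± 0.977 to 21.6 ± 1.37 FPKM (mean ± SD, n = 3 each; log2 fold change -0.66, limma adjusted p = 0.000936). Mafk, a small MAF protein that pairs with BACH1 or with NRF2, fell as well (log2 fold change -0.66, limma adjusted p = 0.00138). Nfe2l2, which encodes NRF2, the activator that competes with BACH1, fell from 156 ± 7.49 to 123 ± 8.26 FPKM (mean ± SD, n = 3 each; log2 fold change -0.35, limma adjusted p = 0.0124), and it is named here after its values were seen. The transcripts of the repressor and of the activator were thus both lower.

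Of the 9 other genes induced through NRF2 or BACH1, 6 fell and none rose (median log2 fold change -0.48). Osgin1, an oxidative stress response gene, fell from 150.4 ± 4.81 to 76.8 ± 3.42 FPKM (mean ± SD, n = 3 each; log2 fold change -0.96, limma adjusted p = 0.000144). Gclc, the catalytic subunit of the enzyme that begins glutathione synthesis, had a log2 fold change of -0.71 (limma adjusted p = 0.00122). Txnrd1, thioredoxin reductase, had a log2 fold change of -0.64 (limma adjusted p = 0.0015). Nqo1, a quinone reductase often used as a readout of NRF2, was not past the threshold (log2 fold change -0.20, limma adjusted p = 0.256).

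In heme breakdown, 2 of the 3 other genes fell. They were Hmox2, given above, and Por, the cytochrome P450 reductase that supplies electrons to heme oxygenase, which went from 188 ± 5.49 to 105 ± 6.22 FPKM (mean ± SD, n = 3 each; log2 fold change -0.83, SE 0.054, limma adjusted p = 0.000352). Heme synthesis showed no gene called lower. There 2 of 11 rose, among them Slc25a38, the mitochondrial glycine carrier (log2 fold change 0.28, limma adjusted p = 0.0471), and 10 of the 11 had a log2 fold change above 0. Alas1, the first enzyme of the pathway, was at 139 ± 0.588 FPKM in WT and 143 ± 8.22 FPKM in PGRN KO (mean ± SD, n = 3 each; log2 fold change 0.04, limma adjusted p = 0.594).

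Of 6 other uptake and siderophore genes, 1 rose and 2 fell. Steap4, a ferrireductase induced by inflammation, rose from 4.73 ± 0.488 to 13.05 ± 0.889 FPKM (mean ± SD, n = 3 each; log2 fold change 1.30, SE 0.083, limma adjusted p = 0.000335). Lrp1, the receptor for heme bound to hemopexin, fell (log2 fold change -0.63, limma adjusted p = 0.0048), as did Slc39a14, the transporter ZIP14 (log2 fold change -0.31, limma adjusted p = 0.0333). The neutrophil granule proteins that hold iron away from microbes did not pass the threshold. For both Lcn2 and Ltf, however, every PGRN KO library was below every WT library, as for 19.6% of all genes tested. Lcn2, which binds bacterial siderophores, was at 4864 ± 25.3 FPKM in WT and 4525 ± 118 FPKM in PGRN KO (mean ± SD, n = 3 each; log2 fold change -0.10, limma adjusted p = 0.154), and Ltf, lactoferrin, had a log2 fold change of -0.13 (limma adjusted p = 0.154).

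In export and hepcidin, 2 of 5 other genes fell and none rose. Hamp, the hormone hepcidin that removes ferroportin from the cell surface, fell from 7.93 ± 0.820 to 4.04 ± 0.667 FPKM (mean ± SD, n = 3 each; log2 fold change -0.83, limma adjusted p = 0.00474), and the other was the ferroxidase gene Cp, at a mean below 1 FPKM in both genotypes. The transcripts of the exporter and of its ligand were thus both lower, but Hamp rests on 26 to 61 fragments per library. The call of Slc40a1 was lost in 4 of the 6 fits that each left out 1 library. In storage and handling, 1 of 4 fell, the iron chaperone gene Pcbp1 (log2 fold change -0.19, limma adjusted p = 0.0377), and 1 rose, Bola2, a partner of glutaredoxin (log2 fold change 0.38, limma adjusted p = 0.0163). In iron sensing, 1 of 7 fell, namely Fbxl5, the iron-sensing ligase subunit that degrades iron regulatory protein 2, from 81.1 ± 5.78 to 57.9 ± 3.16 FPKM (mean ± SD, n = 3 each; log2 fold change -0.48, limma adjusted p = 0.00495).

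Of 18 mitochondrial and iron-sulfur cluster genes, 2 rose, 1 fell and 15 did not pass the threshold, with a median log2 fold change of 0.00. Fdxr, ferredoxin reductase, rose from 1.42 ± 0.135 to 3.40 ± 0.122 FPKM (mean ± SD, n = 3 each; log2 fold change 0.86, limma adjusted p = 0.000725), and Mms19, of the cytosolic assembly machinery, rose with a log2 fold change of 0.28 (limma adjusted p = 0.0326). Ciao2b, of the same machinery, fell with a log2 fold change of -0.43 (limma adjusted p = 0.00282). Slc25a37, mitoferrin 1, had a log2 fold change of 0.02 (limma adjusted p = 0.797). The number of iron and heme genes called higher depended on the scaling, at 6 with the deposited values, 11 with plain totals and 18 in voom. It was 2 without WT library 1 and 3 without PGRN KO library 5. The calls of Hmox2, Pcbp1, Slc39a14, Slc25a38, Mms19 and Bola2 were each lost when at least 1 library was left out, and all of them except that of Bola2 also without the filter on low values. Quantile normalization ended the calls of Hmox2, Pcbp1, Slc25a38 and Mms19, plain totals ended those of Hmox2, Pcbp1 and Slc39a14, and voom ended those of Hmox2 and Pcbp1.

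**Figure D4:**
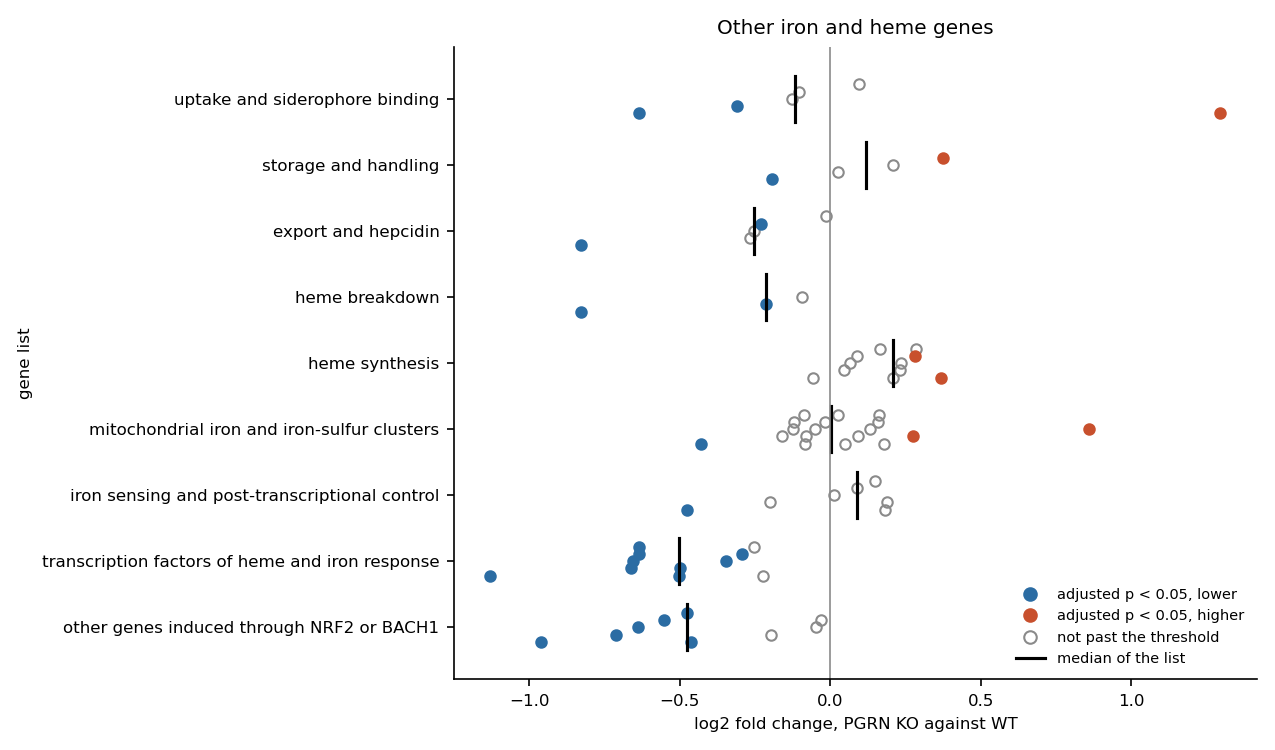
Log2 fold change of PGRN KO against WT (horizontal axis) of the 74 tested other iron and heme genes by list, filled blue where called lower, filled red where called higher and open otherwise, with the median of each list as a black bar. The medians of the list of transcription factors with Keap1 (-0.50) and of the NRF2 or BACH1 genes (-0.48) lie left of 0, and that of heme synthesis (0.21) lies right of it.

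The iron-responsive element was searched on the transcript strand of annotated untranslated regions as a C, then 5 bases, CAGTG, an A, C or T, and 5 bases that pair with the first 5 (A with T, G with C or T). It was found in the 5′ region of 23 of 20597 genes (0.112%) and in the 3′ region of 100 of 20979 genes (0.477%). A match to these letters is a description and does not show that a protein binds there. The lack of a match does not show that a gene has no element, since imperfect stems are missed. Of the 20 other genes with a 5′ match, 14 were tested, 3 were lower and none was higher, with a median log2 fold change of -0.06. Of the 99 other genes with a 3′ match, 61 were tested, 9 were lower and 4 were higher, with a median of -0.03. Over all genes tested, 9.95% were called lower and 7.94% higher, and nothing is read from these counts. The core TGACNNNGC, to which NRF2 and BACH1 with small MAF proteins bind, was searched on both strands of RefSeq promoter windows of 300 bases (GRCm38.p6). It occurred in 4071 of 32851 windows (12.4%), and in 1 of the 12 windows listed for 7 of the 10 genes, a window of Ncoa4. Sequence outside these windows was not searched, and the remaining genes had no window. The search therefore cannot show that any of the 10 genes lacks such a site.

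Across the 6 libraries, Fth1 was most like Ftl1 in its log2 level (Pearson r = 0.998), followed by Mogat2 (0.997) and Sh3bp2 (0.995), among 3481 genes with a mean of at least 10 FPKM. Hmox1 was most like H2-Aa, Clic4 and Atf3 (r = 0.999 for each). These values are a description over 6 points that share 1 difference between genotypes, and 336 genes reached an r of 0.95 with Fth1 and 465 with Hmox1.

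Markers of other cells moved between the genotypes, and their part in the differences above was not tested. Beside the marker counts here and in the next paragraph stand the shares over all genes tested, 9.95% lower and 7.94% higher. Nothing is read from those marker counts. Several of the 10 genes are abundant in macrophages and monocytes. Of 9 monocyte markers, 5 were lower (Ccr2, F13a1, Fn1, Irf8 and Ms4a6c) and Ly6c2 was higher, with the list summing to 501.0 to 509.9 FPKM in WT and 519.8 to 664.1 FPKM in PGRN KO. Ms4a6c was at 19.3 ± 1.43 FPKM in WT and 8.47 ± 0.662 FPKM in PGRN KO (mean ± SD, n = 3 each; log2 fold change -1.10, limma adjusted p = 0.000405). Of 12 macrophage markers, 5 were tested, of which Axl and Marco were lower and Vcam1 was higher. Their list summed to 79.8 to 83.4 FPKM in WT and 75.0 to 82.5 FPKM in PGRN KO. Mertk was at 0 in every library, and C1qa, C1qb, C1qc and Cd5l, also on the list, had means under 0.1 FPKM in both genotypes.

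Red cell precursors also hold much iron and heme machinery. Of 12 erythroid markers, 4 were tested and 3 of them, all globin genes, were higher in PGRN KO, the list summing to 1.12 to 3.09 FPKM in WT and 5.56 to 6.68 FPKM in PGRN KO. Markers of promyelocytes, the precursors that make primary granules, were higher in 6 of 7, and their sum was 209.2 to 244.0 FPKM in WT and 712.0 to 778.1 FPKM in PGRN KO. Markers of dividing cells were higher in 8 of 10, with sums of 186.9 to 192.6 FPKM in WT and 226.5 to 242.6 FPKM in PGRN KO. Of 6 tested B and plasma cell markers 4 were higher, the list summing to 494.7 to 514.6 FPKM in WT and 2238 to 2528 FPKM in PGRN KO, most of it Igkc. Among the 11 neutrophil markers, Csf3r and Mmp8 were lower and Mmp9 was higher.

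**Figure D5:**
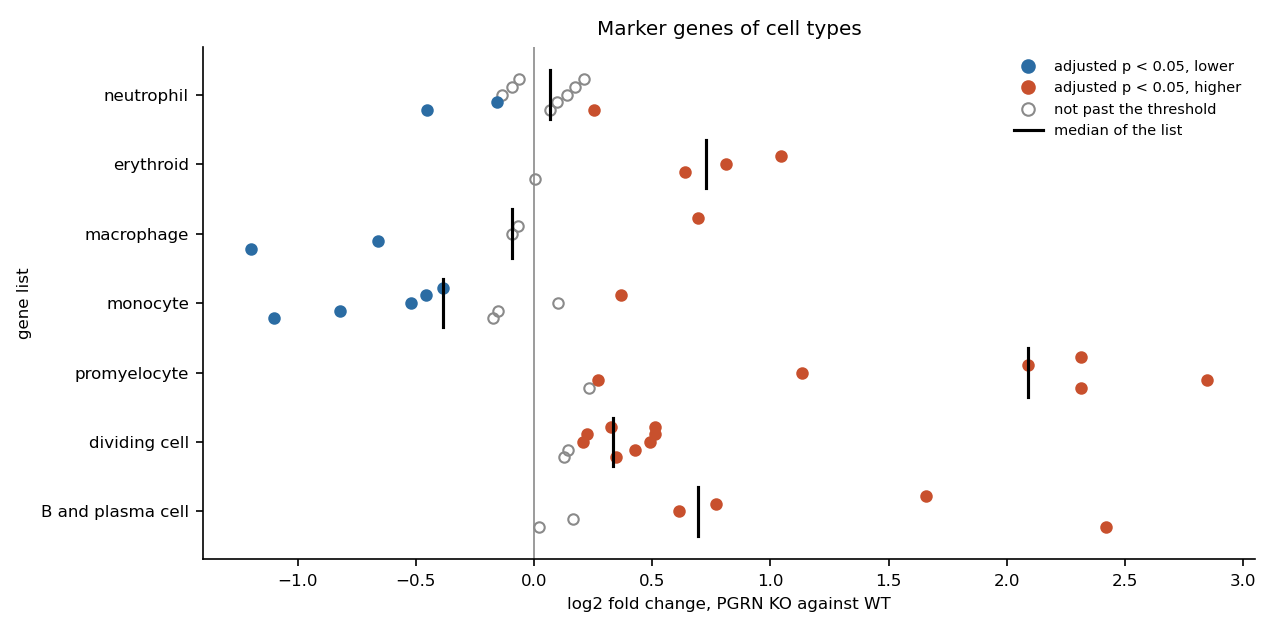
Log2 fold change of PGRN KO against WT (horizontal axis) of the tested marker genes of 7 cell types, filled blue where called lower, filled red where called higher and open otherwise, with the median of each list as a black bar. The median lies at 2.09 for promyelocyte markers, at 0.07 for neutrophil markers and at -0.39 for monocyte markers.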

How the data were processed

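RNA from 6 cultures of bone marrow neutrophils (3 WT, 3 PGRN KO) was sequenced as poly-A mRNA. The authors deposited FPKM values for each library, made by mapping with HISAT. The paper names HTSeq for counting and the submitters' processing notes list featureCounts 1.5.0-p3, HISAT2 2.0.5, DESeq2 1.20.0 and the builds mm10 and GRCm38. Sources used here do not state the strand setting of the counting, and the library kit does not mark strand.

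FPKM times gene length came out within 0.05 of a whole fragment for 100% of values above 0. The fragments on genes were 17557233, 17290604 and 17799798 in WT and 17087344, 17177506 and 18821091 in PGRN KO. The authors' library sizes lay between 16679058 and 17126452 for WT and between 17848820 and 19656980 for PGRN KO. Median-of-ratios factors of the deposited values are all 1. Fragment numbers cover counting error only.

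Log2(FPKM + 1) of the 14807 genes averaging at least 0.1 FPKM was compared with limma 3.58.1 (lmFit, eBayes with trend, R 4.3.3), two-sided, with Benjamini-Hochberg adjustment over all genes tested and a threshold of 0.05. On this scale low genes appear to change less than they did. Of 54532 genes, 31614 were at 0 in all libraries. Python 3.11.15, numpy 2.4.6, pandas 2.3.3 and scipy 1.17.1 were used. On simulated data for this comparison (14807 genes) the fit recovered 118 of 200 genes changed 2-fold, among them 107 of the 126 that averaged at least 1 FPKM (84.9%). Of all its calls, 13 (9.92%) were false. The simulation gave every gene the same fixed spread beyond counting noise and held only 2-fold changes. These rates need not hold for the smaller differences of the 10 genes.

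The 10 genes and all lists were chosen with earlier results of these data known. Named from the lists are genes with an adjusted p under 0.05 and 1 FPKM or more on average, at most 3 per list and direction, and the 3 genes most like Fth1 and Hmox1. Genes not past the threshold and other called genes, such as Nfe2l2, Keap1, Cp and the markers, were named after their values were seen. Tf and Ahsp matched no row. The values of 1 listed gene that passed the threshold are not reported here. Ciao2b was matched to its older symbol Fam96b through RefSeq. The alternatives were other pseudocounts (0.1, 0.01), other filters (none, 1 FPKM), median-of-ratios, quantile and plain-total scaling, voom on recovered fragments, robust eBayes, protein-coding genes alone, and each library left out in turn.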

Additional observations from a re-analysis of the deposited data

How the results depend on the processing

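Over 10 alternatives and 6 fits that each left out 1 library, the log2 fold changes of all 10 genes except Ireb2 stayed below 0. It changed sign, at 0.091 with plain totals, 0.106 in voom, and between -0.067 and 0.020 with 1 library left out, with 0.009, 0.020 and 0.0019 without WT library 2, WT library 3 and PGRN KO library 4. The other filters, median-of-ratios scaling, robust eBayes and protein-coding genes alone leave every log2 fold change as it was. They could alter a call but not a sign. The number of the 10 past the threshold was 6 to 8 in every fit. The number of all genes called was 2648, was 4236 in voom and was 1322 to 2161 with 1 library left out. Higher and lower calls were 1175 and 1473 as reported, 2149 and 934 with plain totals, and 2984 and 1252 in voom. Other iron and heme genes called higher numbered 6, but 11 with plain totals, 18 in voom and 2 to 6 with 1 library left out, while those called lower numbered 24, with 19 to 29 over the alternatives and 18 to 23 with 1 library left out. The causes were not tested. Of 320 fits of the 20 named other genes, 275 kept sign and call, 45 lost the call and none reversed. These include the settings that could not reverse a sign. No paired analysis was possible because the groups share no replicate numbers.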
